A study of Mus musculus with 12 samples.

Results

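The genes described here are 10 genes of enteroendocrine cells, the hormone-secreting cells of the gut lining: Gip, Gcg, Sct, Cck, Pyy, Nts, Ghrl, Sst, Tac1 and Tph1. They were chosen by name, as gut hormone genes plus the enzyme of serotonin synthesis, with earlier results of these data known. All 10 are measured among the 17097 genes analysed, by 11 of the 45141 probe sets on the array. The cells came from mouse small intestine and were sorted into 6 populations: Mex3a-high, Mex3a-low and Mex3a-negative cells of high Lgr5, and Mex3a-high, Mex3a-low and Mex3a-negative cells of low Lgr5. Each population was taken in biological replicates MR793 and MR820, which gives 12 Affymetrix arrays and n = 2 per population. The cells were primary and untreated, and RNA came from 2000 cells per sample and passed through 22 amplification cycles. The sources used here do not name the mouse strain, the age, or how Mex3a and Lgr5 were read in the sort; nor do they say whether the replicates are single or pooled animals, so that p values measure the spread between these samples. Lgr5 marks the stem cells at the crypt base, and Mex3a encodes an RNA-binding protein. All levels are log2 values of the RMA method (robust multi-array average), a scale on which 1 unit is a doubling, and on which dim probe sets have compressed differences.

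Enteroendocrine cells arise from crypt stem cells through a secretory progenitor that expresses the transcription factor Neurog3. Each mature cell makes 1 or a few peptides, stores them with granins in dense-core granules, and releases them when nutrients or other signals reach the lumen. The peptides act on the pancreas, the gallbladder, gut motility and appetite. Cells that make serotonin use the enzyme Tph1 and often also Tac1.

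The label of the gene group was checked against Chga, Chgb, Neurod1 and Pax6, general markers of these cells. Chga, a granin, was 11.62 and 10.26 in Mex3a-high Lgr5-low cells (MR793, then MR820, as in every pair of values below), against 7.49 and 6.49 in Mex3a-negative Lgr5-low cells. Chgb, another granin, was 12.65 and 12.61 against 9.37 and 8.19 in the same populations. Neurod1, a transcription factor of enteroendocrine differentiation, was 8.54 and 8.73 against 5.29 and 5.11, and Pax6, another one, 8.31 and 7.64 against 5.42 and 5.66. All 4 had their highest mean in Mex3a-high Lgr5-low cells. Between these populations Chga, Neurod1 and Pax6 had a limma adjusted p under 0.05. Chgb did not (3.85 ± 0.81, limma adjusted p = 0.0534). Lgr5 itself averaged 9.60 to 10.13 in the 3 Lgr5-high populations and 6.81 to 7.83 in the 3 Lgr5-low ones, while Mex3a averaged 5.52 to 6.09 over all 6 and did not separate its gates. One array stood apart, the MR793 array of Mex3a-high Lgr5-high cells: it correlated at 0.896 to 0.916 with the others, against 0.971 to 0.996 among the other 11. The main results that rest on it are therefore also given without it.

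Sequences upstream of a transcript start of 5 of the genes are shown because the values below turn on them: Gip for its level in Mex3a-low cells, Gcg for its spread between replicates, Nts for the difference between Lgr5 gates, Tac1 for a large difference that the replicates share closely, and Sst for the cyclic AMP response element. Enteroendocrine differentiation works through basic helix-loop-helix and homeodomain transcription factors, which bind E-boxes and TAAT cores. Capitals mark an E-box (CANNTG), a TAAT core or a cyclic AMP response element (TGACGTCA), searched on both strands, with no overlap between different motifs; TAATTA counts as 2 overlapping TAAT matches. For Gip, Gcg, Nts and Tac1 the bases end just before the first base of the RefSeq gene model, and for Sst only 30 bases around the element are shown, which lie upstream of the listed transcript start but inside the RefSeq model of the gene. The sequences are from RefSeq, build GRCm38.p6, read 5′ to 3′ on the strand of the gene.
Gip (chr11:96024295-96024531, plus strand): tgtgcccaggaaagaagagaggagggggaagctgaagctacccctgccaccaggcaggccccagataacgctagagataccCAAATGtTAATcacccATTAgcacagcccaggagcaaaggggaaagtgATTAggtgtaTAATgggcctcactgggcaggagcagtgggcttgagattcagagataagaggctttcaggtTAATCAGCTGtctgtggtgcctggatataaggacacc
Gcg (chr2:62483654-62483903, minus strand): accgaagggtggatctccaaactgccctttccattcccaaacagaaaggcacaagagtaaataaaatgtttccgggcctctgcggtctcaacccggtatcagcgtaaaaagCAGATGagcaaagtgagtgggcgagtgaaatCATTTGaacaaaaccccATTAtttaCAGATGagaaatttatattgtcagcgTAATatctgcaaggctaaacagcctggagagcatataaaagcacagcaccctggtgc
Nts (chr10:102490419-102490668, minus strand): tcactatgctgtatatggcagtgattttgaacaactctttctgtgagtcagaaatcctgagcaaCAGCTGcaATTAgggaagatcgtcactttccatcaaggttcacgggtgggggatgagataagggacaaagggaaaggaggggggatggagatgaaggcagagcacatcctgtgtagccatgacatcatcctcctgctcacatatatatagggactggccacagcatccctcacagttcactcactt
Tac1 (chr6:7554811-7555060, plus strand): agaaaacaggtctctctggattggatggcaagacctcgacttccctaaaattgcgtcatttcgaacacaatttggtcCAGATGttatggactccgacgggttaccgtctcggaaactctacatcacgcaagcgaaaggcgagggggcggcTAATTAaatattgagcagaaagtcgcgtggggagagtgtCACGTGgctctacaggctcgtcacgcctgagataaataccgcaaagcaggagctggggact
Sst (chr16:23890874-23890903, minus strand): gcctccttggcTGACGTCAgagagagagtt

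All 10 genes matched the promoter table, with 15 windows of 250 bases upstream of a transcript start; windows of 1 gene can overlap. An E-box lies in 11 of the 15 windows, against 66.2% of the 32851 windows in the table. A TAAT core lies in 7 of the 15, against 54.9%. Both are common motifs, and their presence here is a description of the letters, not of binding. The full cyclic AMP response element lies in 1 of the 15 windows, that of Sst, at positions -48 to -41 before the transcript start, and in 1.55% of all windows.

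**Figure D1:**
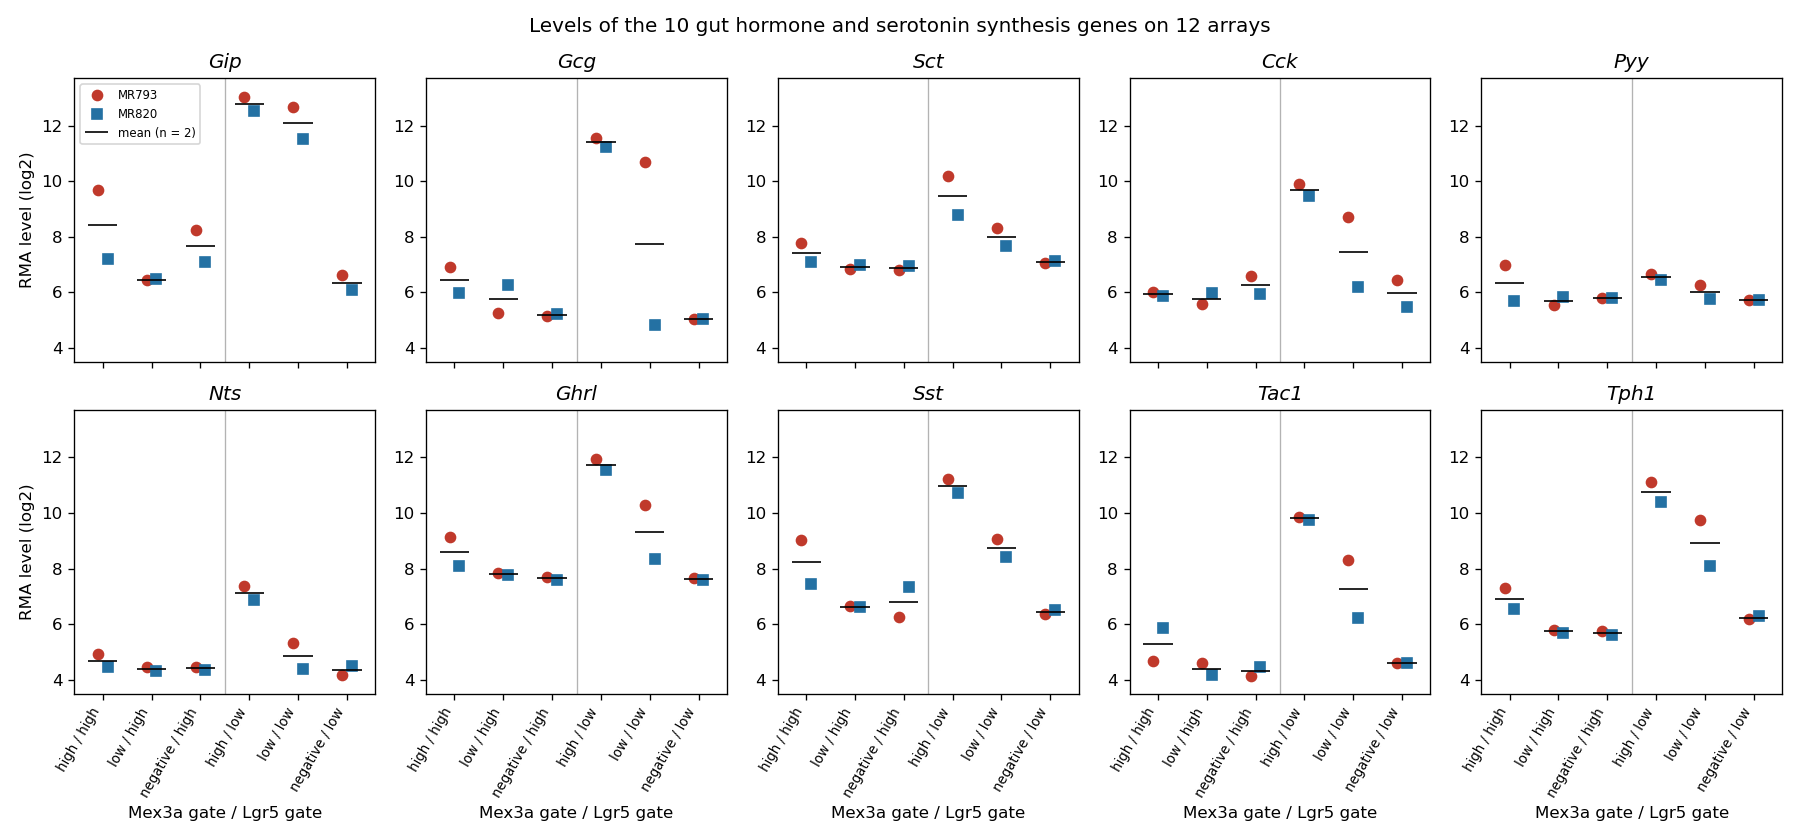
Level of each of the 10 genes (log2 RMA value, vertical axis) in the 6 populations (Mex3a gate / Lgr5 gate, horizontal axis). Red circles are MR793, blue squares MR820 and bars the mean of both. Mex3a-high Lgr5-low cells have the highest mean for all 10 genes, and for Gcg the Mex3a-low Lgr5-low arrays lie at 10.69 and 4.82.

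By mean level, Mex3a-high Lgr5-low cells were the highest population for all 10 genes. For 8 of the 10, both of their arrays lay above the other 10 arrays, which was the case for 5.54% of the 17097 genes. The exceptions were Gip, where a Mex3a-low Lgr5-low array reached into their range, and Pyy. Mex3a-low Lgr5-low cells were the population with the next highest mean for 9 genes, all but Pyy. Among the other 4 populations, Mex3a-high Lgr5-high cells had the highest mean for 9 genes, all but Cck. For 4 of the 10, Ghrl, Sst, Tac1 and Tph1, both of their arrays lay above the 6 arrays of the Mex3a-low Lgr5-high and the Mex3a-negative populations, as they did for 4.18% of all genes. None of the 10 genes passed in the comparisons made among these 4 populations, and Mex3a-high Lgr5-high cells were not tested against Mex3a-negative Lgr5-low cells. In bulk samples such as these, fewer cells of a type and less RNA per cell cannot be told apart.

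Gip encodes glucose-dependent insulinotropic polypeptide, the incretin of K cells in the upper small intestine. It stood at 13.05 and 12.52 in Mex3a-high Lgr5-low cells, at 12.67 and 11.50 in Mex3a-low Lgr5-low cells, and at 6.62 and 6.08 in Mex3a-negative Lgr5-low cells. In the Lgr5-high gate it was 9.70 and 7.19 in Mex3a-high cells, 6.44 and 6.48 in Mex3a-low cells, and 8.24 and 7.10 in Mex3a-negative cells. The 4 arrays of Mex3a-high and Mex3a-low Lgr5-low cells thus lay above the other 8, the highest of which was the array that stood apart. Its difference between Mex3a-high and Mex3a-negative Lgr5-low cells was 6.43 ± 0.73 (moderated SE), with a limma adjusted p of 0.00121. That is a fold of 86.2, the largest fitted among the 10 genes.

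Gcg encodes proglucagon, the source of the GLP peptides of L cells. It was 11.56 and 11.24 in Mex3a-high Lgr5-low cells, and 5.04 and 5.04 in Mex3a-negative Lgr5-low cells. In Mex3a-low Lgr5-low cells it was 10.69 in MR793 and 4.82 in MR820, so that one replicate lay near the Mex3a-high level and the other under the Mex3a-negative level. The 6 Lgr5-high arrays ran from 5.14 to 6.91. The difference of 6.36 ± 1.40 between Mex3a-high and Mex3a-negative Lgr5-low cells was nearly that of Gip, but did not pass (adjusted p = 0.0632); without the array that stood apart it passed (adjusted p = 0.0329), and Pyy then passed too (0.0223).

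Pyy encodes peptide YY, which L cells make mostly in the ileum and colon. It was 6.65 and 6.46 in Mex3a-high Lgr5-low cells, 6.27 and 5.76 in Mex3a-low Lgr5-low cells, and 5.72 and 5.72 in Mex3a-negative Lgr5-low cells. The highest value of all, 6.97, was in Mex3a-high Lgr5-high cells of MR793, and the same population had 5.68 in MR820; the other 4 Lgr5-high arrays ran from 5.55 to 5.85. Over all 12 arrays Pyy spanned 1.43, the smallest span of the 10 genes, and it lay above the array median on 4 arrays. Its difference between Mex3a-high and Mex3a-negative Lgr5-low cells was 0.83 ± 0.36 (95% interval 0.04 to 1.63, adjusted p = 0.691).

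Sct encodes secretin, which stimulates bicarbonate secretion by the pancreas, and Cck encodes cholecystokinin, which contracts the gallbladder. Sct was 10.18 and 8.79 in Mex3a-high Lgr5-low cells, 8.32 and 7.66 in Mex3a-low cells, and 7.07 and 7.14 in Mex3a-negative cells of the same Lgr5 gate. Cck was 9.89 and 9.48, then 8.73 and 6.19, then 6.46 and 5.48 in the same order. Both rose in Mex3a-high over Mex3a-negative Lgr5-low cells: Sct by 2.38 ± 0.42 (adjusted p = 0.0196) and Cck by 3.71 ± 0.67 (adjusted p = 0.0220). The Lgr5-high arrays ran from 6.80 to 7.78 for Sct and from 5.59 to 6.58 for Cck, and no Lgr5-high array of either gene reached the Mex3a-high Lgr5-low arrays.

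Nts encodes neurotensin, a peptide of the lower small intestine that slows gut motility. It was 7.37 and 6.88 in Mex3a-high Lgr5-low cells, 5.32 and 4.39 in Mex3a-low Lgr5-low cells, and 4.19 and 4.49 in Mex3a-negative Lgr5-low cells. The 6 Lgr5-high arrays lay between 4.31 and 4.91. Only the 2 Mex3a-high Lgr5-low arrays were above the array median for Nts, and the values of the other 10 arrays were below it. The difference from Mex3a-negative Lgr5-low cells was 2.78 ± 0.29 (adjusted p = 0.00074), a fold of 6.89.

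Ghrl encodes ghrelin, the appetite-stimulating peptide of X/A-like cells, and Sst encodes somatostatin, the paracrine inhibitor made by D cells. Ghrl was 11.93 and 11.55 in Mex3a-high Lgr5-low cells, 10.27 and 8.34 in Mex3a-low cells, and 7.67 and 7.60 in Mex3a-negative cells of that gate. Sst was 11.24 and 10.72, then 9.05 and 8.43, then 6.37 and 6.52 in the same order. Both Mex3a-low arrays of Sst lay between those of the other Mex3a gates, 0.62 apart, while those of Ghrl were 1.94 apart. Among Lgr5-high cells, Ghrl was 9.13 and 8.09 in Mex3a-high cells and 7.60 to 7.84 on the other 4 arrays, and Sst was 9.03 and 7.46 in Mex3a-high cells and 6.26 to 7.35 on the others. The Mex3a-high over Mex3a-negative differences were 4.10 ± 0.54 for Ghrl (adjusted p = 0.00314) and 4.54 ± 0.51 for Sst (adjusted p = 0.00116).

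Tac1 encodes the precursor of substance P and neurokinin A, and Tph1 the enzyme that starts serotonin synthesis outside the brain; both mark enterochromaffin cells. Tac1 was 9.87 and 9.76 in Mex3a-high Lgr5-low cells, 8.33 and 6.22 in Mex3a-low cells, and 4.61 and 4.60 in Mex3a-negative cells of that gate. Tph1 was 11.13 and 10.39, then 9.76 and 8.09, then 6.18 and 6.29. In Mex3a-high Lgr5-high cells Tac1 was 4.69 and 5.85 and Tph1 7.29 and 6.54, against 4.13 to 4.60 and 5.62 to 5.81 on the other 4 Lgr5-high arrays. They rose by 5.21 ± 0.58 (adjusted p = 0.00118) and 4.52 ± 0.48 (adjusted p = 0.000868) over Mex3a-negative cells. Tac1 has a second probe set that did not follow: it was 5.50 and 5.31 in Mex3a-high Lgr5-low cells, against 5.42 and 5.20 in Mex3a-negative Lgr5-low cells. Its highest value, 7.16, was on the array that stood apart. The MR820 array of that population had 5.20, inside the range of 5.13 to 5.39 on the other Lgr5-high arrays. The probe set used has the higher mean over the 12 arrays, which rests on the Mex3a-high and Mex3a-low Lgr5-low arrays. With the mean of both probe sets the difference in Lgr5-low cells was 2.65 ± 0.33 and still passed (adjusted p = 0.0023).

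**Figure D2:**
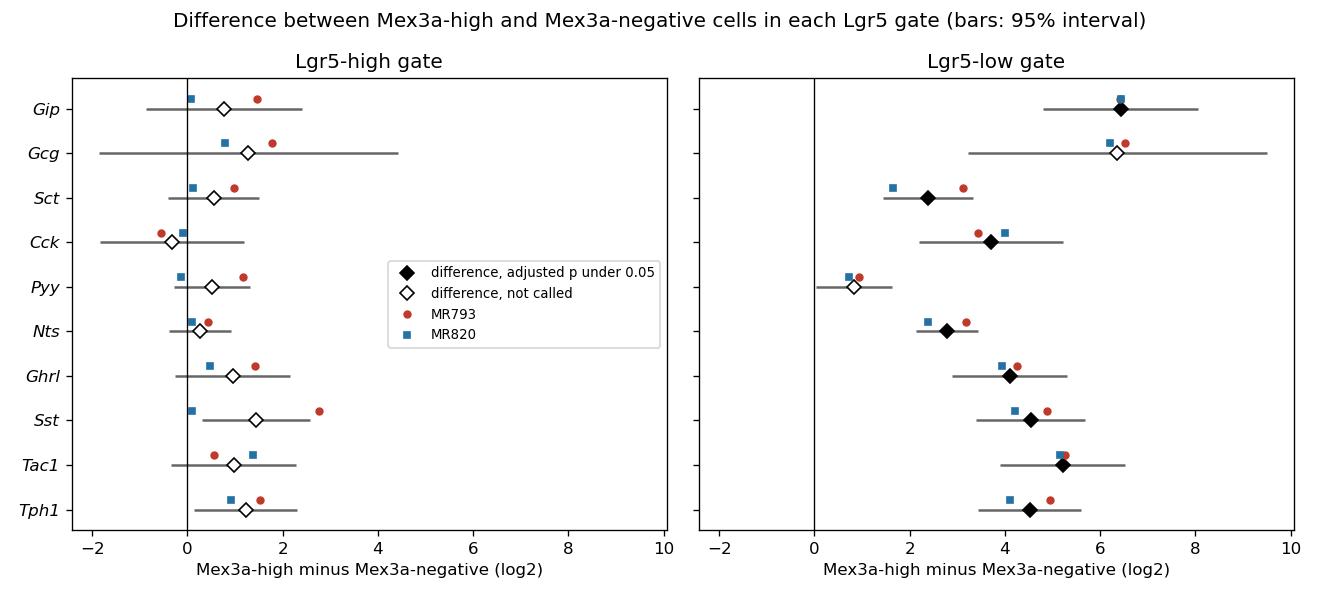
Mex3a-high minus Mex3a-negative log2 difference of each gene in Lgr5-high cells (left) and Lgr5-low cells (right). Diamonds are the fitted difference (filled where the adjusted p is under 0.05), bars its 95% interval, and the small marks above them the replicates. In Lgr5-low cells 8 of 10 diamonds are filled, and in Lgr5-high cells 0 are.

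Mex3a-high and Mex3a-negative cells were compared to ask how the Mex3a gates differ at a given Lgr5 level. In Lgr5-low cells 8 of the 10 genes rose and none fell, where 1.71% of all genes rose. Only Gcg and Pyy missed the threshold. The median difference of the 10 was 4.31, against -0.01 over all genes, and every one of the 10 was higher in both replicates. Sct lost its call when any of 3 arrays was left out (Mex3a-high MR793 and both Mex3a-negative arrays of this gate), and Cck when any of the 4 arrays compared was. Without the array that stood apart, 10 of the 10 passed, where 4.06% of all genes were higher. Only array strip 3 holds both populations, and within it the differences ran from 0.93 to 6.69.

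In Lgr5-high cells none of the 10 passed between Mex3a-high and Mex3a-negative cells, and 0% of all 17097 genes did, although 661 had an unadjusted p under 0.05. The 10 genes had a median difference of 0.86, or 0.32 without the array that stood apart. Beside them, all 10 tuft cell markers were positive, with a median of 1.57 with or without that array and mean levels of 6.87 to 7.16 in Mex3a-high cells against 5.22 to 5.42 in Mex3a-negative cells, and 5 Paneth cell markers had a median of 1.20 (1.03 without it). The 8 enterocyte markers were all negative, with a median of -0.91 (-1.01 without it). No marker of these lists passed, and their part in the values of the 10 genes was not tested. Sst differed by 1.44 ± 0.51, which was 2.77 in MR793, the replicate of that array, and 0.10 in MR820. Tph1 (1.53 and 0.92) and Tac1 (0.56 and 1.38) were higher in both replicates without passing; each replicate's pair of arrays lies on 1 strip, so these are also the within-strip values. For Gip the sign turned: it was 0.77 with all arrays and -0.48 without the array that stood apart. When instead the MR820 array of the Mex3a-high cells was left out, so that the array that stood apart represented them alone, Gip, Pyy, Sst and Tph1 passed in this comparison, but so did 62.3% of all genes, a larger share than of the 10. Mex3a-high against Mex3a-low cells in this gate also gave 0% called, with 621 genes at an unadjusted p under 0.05. The median of the 10 genes was 0.75 there, or 0.26 without the array that stood apart. Mex3a-low against Mex3a-negative cells gave 0% called, 79 genes at an unadjusted p under 0.05, and differences from -1.21 to 0.59.

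The difference of the Mex3a-high over Mex3a-negative change between the gates was tested directly, as Lgr5-high minus Lgr5-low. Nts alone passed, at -2.51 ± 0.41 (adjusted p = 0.0369), where 0.398% of all genes were lower. Gip (-5.66, adjusted p = 0.0643) and Tac1 (-4.24, adjusted p = 0.0930) were larger in size but had wider errors. Without the array that stood apart, Gip, Nts and Sst passed, where 0.936% of all genes were lower. That fit leaves 1 array of Mex3a-high Lgr5-high cells, from MR820, so these calls rest on 1 replicate of that population. Its differences were -6.91 for Gip, -2.73 for Nts and -3.89 for Sst. For Sst the replicates disagreed: the Mex3a-high over Mex3a-negative change in Lgr5-high cells was 2.77 in MR793 and 0.10 in MR820. With all arrays the Sst difference between gates was -3.10 and did not pass. Nts kept its call when any of 4 arrays was left out and lost it for each of the other 8. These were the arrays of the Mex3a-high and Mex3a-negative Lgr5-low and of the Mex3a-low and Mex3a-negative Lgr5-high populations. With the replicate as a block, Gip passed too (limma adjusted p = 0.0138), which made 2 genes. The share of all genes called in that fit is not given here. The same test on Mex3a-high over Mex3a-low and on Mex3a-low over Mex3a-negative, added after the values were seen, called none of the 10.

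Mex3a-low Lgr5-low cells lay between the other Mex3a gates of that Lgr5 gate for most genes, at a distance that differed from gene to gene. Taken as Mex3a-high minus Mex3a-low Lgr5-low cells, all 10 fitted differences were positive, with a median of 2.23. Only Nts passed (2.27 ± 0.29, adjusted p = 0.00564), where 0.889% of all genes were higher. It differed by 2.05 in MR793 (strip 3) and 2.49 in MR820 (strip 2), and lost its call without the Mex3a-high Lgr5-low array of MR793. When MR793 was left out of the Mex3a-low cells, only their MR820 array was left. The 10 differences then ran from 0.79 for Pyy to 6.58 for Gcg. With all arrays these 2 genes differed by 0.54 and 3.64. Without the array that stood apart, Ghrl (adjusted p = 0.0322), Sst (0.00829) and Tac1 (0.0396) passed as well, where 2.37% of all genes did. With the replicate as a block 2 passed, and with the strip as a block 5. Over all settings, 49 to 420 of all genes tested passed in this comparison.

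Against Mex3a-negative cells, Mex3a-low Lgr5-low cells had only Gip called, at 5.73 ± 0.73 (adjusted p = 0.0397), where 0.0468% of all genes were higher. All 10 differences were positive, with a median of 1.98. The Gip difference was 6.05 in MR793 and 5.42 in MR820, and it lost the call after quantile normalization (adjusted p = 0.0854) and when any of 10 of the 12 arrays was left out. Without the MR820 array of Mex3a-low Lgr5-low cells, which leaves 1 array of them, Gcg differed by 5.65, Tac1 by 3.72 and Tph1 by 3.52. With all arrays these were 2.72, 2.67 and 2.69. Within strip 3, the only one with both populations, the 10 differences ran from 0.55 to 6.31.

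The position of Mex3a-low cells can be given as the share of the Mex3a-high minus Mex3a-negative log2 difference that they reach. It is not a share of abundance. For Gip this share was 94.1% in MR793 and 84.2% in MR820. Gip was still 0.38 and 1.01 log2 higher in Mex3a-high than in Mex3a-low cells. Gcg reached 86.7% in MR793 and -3.5% in MR820. Nts reached 35.5% and -4.2%. For Sst it was 55.0% and 45.4%, for Tph1 72.2% and 44.0%, and for Sct 40.3% and 31.9%. The share was lower in MR820 for every one of the 10 genes.

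**Figure D3:**
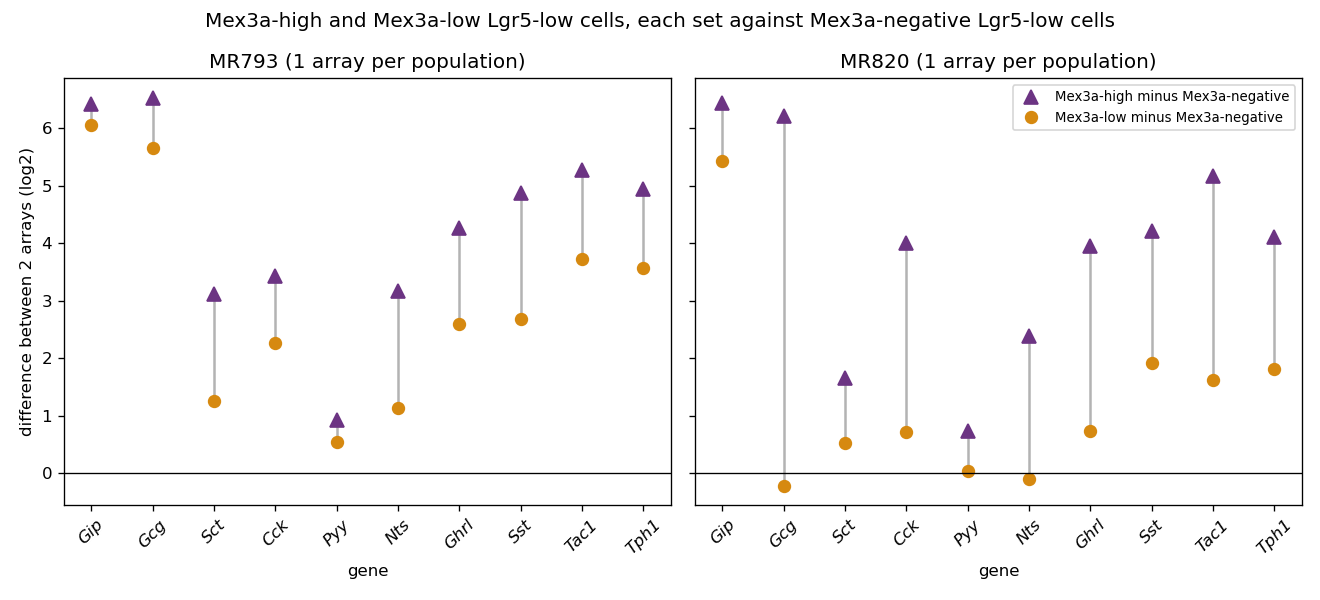
Log2 difference from the Mex3a-negative Lgr5-low array of the same replicate, for Mex3a-high (triangles) and Mex3a-low (circles) Lgr5-low cells, in MR793 (left) and MR820 (right). Gip's circles lie near its triangles in both replicates, while Gcg's circle is near its triangle in MR793 and at -0.22 in MR820.

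That replicate difference in Mex3a-low Lgr5-low cells was wide for several of the 10 genes. Gcg was 5.87 higher in MR793 than in MR820, the widest gap in that direction of all 17097 genes. Cck followed at 2.53, with 6 genes wider in that direction, and Tac1 at 2.11, with 15 wider. In all, 6 of the 10 genes were over 1 log2 higher in MR793, as were 0.871% of all genes, and 15 genes were over 1 log2 higher in MR820. Tuft cell markers, 10 genes, had a mean level of 8.23 on one array of this population and 7.15 on the other, and what these cells contribute to the gap was not tested.

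**Figure D4:**
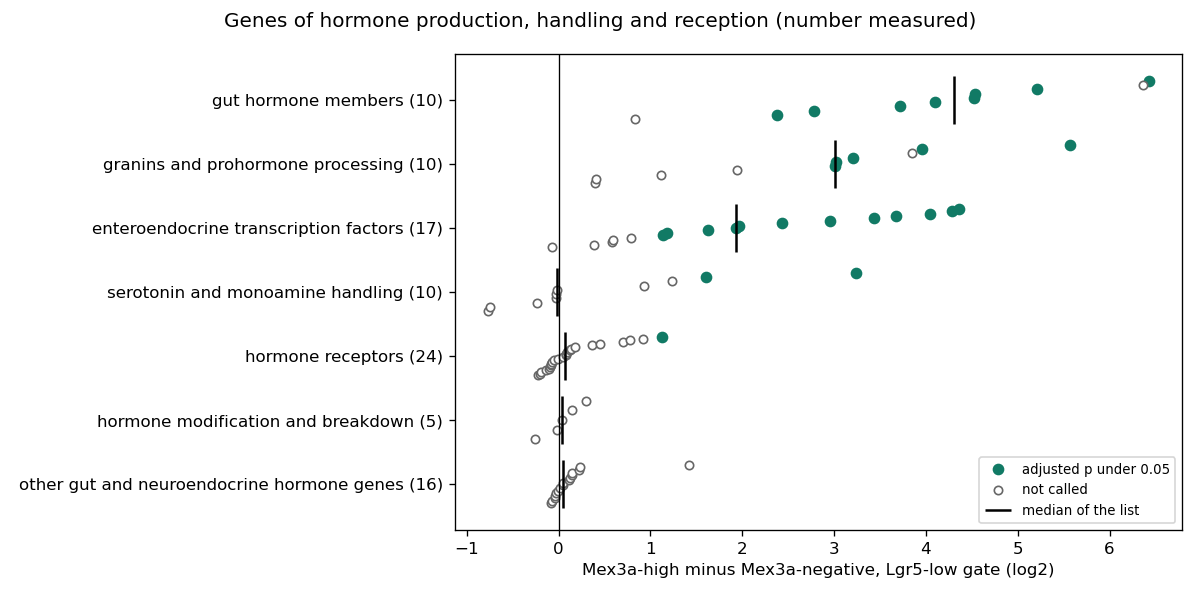
Mex3a-high minus Mex3a-negative log2 difference in Lgr5-low cells for the 10 genes and for other genes of hormone production, handling and reception, 1 point per gene. Filled points have an adjusted p under 0.05 and bars are medians. Granins with processing enzymes and transcription factors lie mostly to the right of 0 (medians 3.01 and 1.93), and other hormone genes and receptors near 0.

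Beside the 10 genes, the same comparison of Mex3a-high with Mex3a-negative Lgr5-low cells was described for lists of related genes. The counts below stand beside the 1.71% of all genes that rose. Of 10 granins and prohormone processing genes, 5 rose (median 3.01): Cpe, which trims peptides, by 5.57 ± 0.59, Pcsk1, a prohormone convertase, by 3.21 ± 0.37, Pam, an amidating enzyme, by 3.01 ± 0.27, and the granins Scg2 (3.02 ± 0.39) and Chga. Of 17 enteroendocrine transcription factors, 12 rose (median 1.93), among them Isl1 (4.04 ± 0.32), Runx1t1 (3.67 ± 0.22), Neurod1 (3.43 ± 0.18) and St18 (2.95 ± 0.20). In neither list did any gene fall.

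Of 10 genes of serotonin and monoamine handling, 2 rose: Slc18a1, a vesicular monoamine transporter, by 3.24 ± 0.40 (adjusted p = 0.0022), and Gch1, which makes a cofactor of Tph1, by 1.61 ± 0.28 (adjusted p = 0.0192). Slc6a4, the serotonin reuptake transporter, differed by -0.75 ± 0.36 without passing. Of 24 hormone receptors, 1 rose, Gipr, the receptor for GIP, by 1.12 ± 0.19 (adjusted p = 0.0152), a share close to that of all genes. None of 16 other gut and neuroendocrine hormone genes passed; Ucn3, urocortin 3, was 2.82 higher in MR793 and 0.01 higher in MR820. None of 5 genes of hormone modification and breakdown passed.

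Markers of other cell types moved with the hormone genes in this comparison. All 10 tuft cell markers rose, with a median of 5.25, and their mean level was 10.04 to 10.12 in Mex3a-high Lgr5-low cells, against 5.40 to 5.45 in Mex3a-negative Lgr5-low cells. Of 5 Paneth cell markers 3 rose, Defa21, Itln1 and Mmp7. Of 8 enteric neuron and glia markers 2 rose, Ret and Snap25, with mean list levels of 6.25 to 6.33 against 5.36 to 5.41, and of 9 mast cell markers 1 rose, Kit, with mean list levels of 5.20 to 5.35 against 4.99 to 5.05. Of 8 immune cell markers Lyz2 and Ptprc rose, and none of 8 goblet, 8 enterocyte, 8 stem cell and 5 pancreatic markers did. What these cells contribute to the values of the 10 genes was not tested.

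Lgr5-high cells were compared with Lgr5-low cells within each Mex3a gate. In the Mex3a-high gate 7 of the 10 genes fell in Lgr5-high cells, where 1.32% of all genes were lower, with a median of -3.43 for the 10. Tac1 (-4.54 ± 0.58, adjusted p = 0.00419), Tph1 (-3.84 ± 0.48, adjusted p = 0.00371), Cck (-3.74 ± 0.67, adjusted p = 0.0265) and Nts (-2.43 ± 0.29, adjusted p = 0.0026) were among them, with Gip, Ghrl and Sst. Sct (adjusted p = 0.0557), Gcg (0.203) and Pyy (0.690) did not pass, but Sct did with the replicate as a block (0.0352). With the strip as a block Cck (0.0694) and Sst (0.201) lost their calls. Within strip 2, which alone holds both populations, the differences ran from -5.33 to -0.78. Without the array that stood apart, 1 array of Mex3a-high Lgr5-high cells is left. The differences then ran from -5.59 to -0.88 with a median of -3.73, and were -3.82 for Cck and -2.40 for Sct. A fit of only these 4 arrays called none of the 10, and 0 of all genes. Each of the 12 arrays was also left out in turn. Calls were then kept 12 times for Nts, 11 for Tac1 and Tph1, 10 for Gip, 6 for Ghrl, 5 for Cck and 4 for Sst. Of the other lists, 5 of 10 granins and processing genes, 8 of 17 transcription factors and 9 of 10 tuft cell markers (median -2.98) also fell, as did Ret and Snap25 of the neuron and glia markers, Kit of the mast cell markers and Ptprc of the immune cell markers. The tuft cell markers had mean levels of 6.87 to 7.16 in Lgr5-high cells, against 10.04 to 10.12 in Lgr5-low cells. Of 8 stem cell markers 2 rose, Axin2 and Rnf43, where 0.0526% of all genes were higher. The part of these cells in the values of the 10 genes was not tested.

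In the Mex3a-low and the Mex3a-negative gates no strip holds both Lgr5 populations. There is thus no within-strip difference for them, and strip is mixed with the Lgr5 gate. In the Mex3a-low gate Gip alone passed, with a difference of -5.62 ± 0.73 (adjusted p = 0.0467), where 0.0409% of all genes were lower. It lost the call when any of 10 of the 12 arrays was left out. Without the MR820 array of Mex3a-low Lgr5-low cells, 1 array of them is left, so only sizes are given. Gcg then differed by -4.93, Tac1 by -3.95 and Tph1 by -4.01. By replicate, the Gcg difference was -5.44 in MR793 but 1.44 in MR820. For Tac1 it was -3.73 and -2.06, and for Tph1 -3.95 and -2.41. In the Mex3a-negative gate none of the 10 passed and 0% of all genes did, with 371 genes at an unadjusted p under 0.05 and differences from -0.55 for Tph1 to 1.32 for Gip.

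The 10 genes largely varied together over the 12 arrays, which share their populations, replicates and strips. Tac1 and Tph1 had the highest Pearson correlation of any pair, 0.971, and the 9 pairs with Pyy ran from 0.553 to 0.801, or from 0.843 to 0.973 without the array that stood apart. Genes most like a member in this measure were Rbp4 for Ghrl (0.996), Siglecf, a tuft cell marker, for Tac1 (0.996), and Spock2 for Nts (0.992). Alox5ap, also a tuft cell marker, was the gene most like Tph1 (0.981), Cnr1 the one most like Sct (0.982), Disp2 the one most like Cck (0.977), Ppil6 the one most like Sst (0.978) and Bex2 the one most like Gip (0.921). Ahnak2 was nearest to Gcg, at 0.972, and Rbp4 came next (0.965). For the mean standardised profile of the 10 genes it was Rbp4 again (0.996), then Cwh43 (0.987) and Rac2 (0.986).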

How the data were processed

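The authors deposited log2 RMA values per probe set, per the submitters' processing notes; the RMA settings are not named there, and no raw intensities were reprocessed. Levels are relative, and the 11 member probe sets each have 1 gene. Per gene the brightest single-gene probe set was used, which left 17097 genes. Members and lists were chosen with earlier results of these data known. limma (3.58.1, R 4.3.3) fitted a mean per population, with eBayes moderation along the mean-variance trend; the fit had 6 residual degrees of freedom and a prior worth 3.44. The Benjamini-Hochberg adjustment ran over all genes of a comparison, and a call is an adjusted p under 0.05. Genes named besides the 10 are the marker genes, those most correlated with a member that spans at least 2 log2, up to 4 of each list with the smallest p, and all needed for a count of 5 or fewer. The replicate labels pair the samples: 14 of 15 pairs of populations had correlated replicate differences over 0.1, with the lowest at -0.115. Without Mex3a-high Lgr5-high cells, the 10 remaining pairs ran from 0.374 to 0.566. The main fit has no block for this pairing, so its p values are those of an unpaired model. The arrays lie on 3 strips. Alternatives were blocks for replicate or strip, other scalings, the mean of a gene's probe sets, a filter on dim genes, only the arrays compared, and each array left out. Iapp, Calca and Slc18a2 were not analysed here. Self-tests on simulated data preceded the fit.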

Additional observations from a re-analysis of the deposited data

Results flagged for a closer look

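Nts, neurotensin, differed between the Lgr5 gates in its Mex3a-high over Mex3a-negative change: the change was 0.27 in Lgr5-high cells and 2.78 in Lgr5-low cells, a difference of -2.51 (Lgr5-high minus Lgr5-low), which passed the limma test of the difference itself (adjusted p = 0.0369). It was -2.73 in MR793 and -2.29 in MR820.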

How the results depend on the processing

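The count of the 10 genes called in Mex3a-high against Mex3a-negative Lgr5-low cells stayed within 1.5 times 8 in the other settings and was 6 to 10 with an array left out. Other counts moved. Mex3a-high against Mex3a-low Lgr5-low cells gave 2 with the replicate block, 5 with the strip block, 0 with genes under the median left out (this removes Nts itself, here and below), 2 with only the arrays compared, and 0 to 6 with an array left out. Mex3a-low against Mex3a-negative Lgr5-low cells gave 2 with the strip block, 0 after quantile normalization and 0 to 3 with an array left out. Lgr5-high against Lgr5-low cells gave 0 with only the arrays compared in the Mex3a-high gate (1 to 9 with an array left out, 9 without Mex3a-high Lgr5-high MR820, where 63.6% of all genes passed); in the Mex3a-low gate it gave 0 after quantile normalization, 0 with the mean of the probe sets, 2 with only the arrays compared and 0 to 3 with an array left out. The difference between gates gave 2 with the replicate block, 7 with the strip block, 2 with common medians, 0 with genes under the median left out and 0 to 7 with an array left out (7 without Mex3a-high Lgr5-high MR820, where 48.6% of all genes passed, and 6 without either Mex3a-low Lgr5-low array, where 0.521% did). In the Lgr5-high gate, Mex3a-high against Mex3a-negative and against Mex3a-low cells each gave 0 to 4 with an array left out, and 4 only without Mex3a-high Lgr5-high MR820, where 62.3% and 60.7% of all genes passed. With an array left out, in the 8 comparisons for which signs were computed (not Mex3a-low against Mex3a-negative Lgr5-high cells, nor the Lgr5 gates of Mex3a-negative cells), signs turned for Gip (-0.48 to 2.02) and Pyy (-0.12 to 1.17) in Mex3a-high against Mex3a-negative Lgr5-high cells, Cck (-0.021 to 0.354) and Pyy (-0.0163 to 1.28) in Mex3a-high against Mex3a-low Lgr5-high cells, Gcg (-0.22 to 5.65) in Mex3a-low against Mex3a-negative Lgr5-low cells, Pyy (-0.88 to 0.42) between the Lgr5 gates of Mex3a-high cells, Gcg (-4.93 to 0.94) and Nts (-0.93 to 0.000851) between those of Mex3a-low cells, and Pyy (-0.96 to 0.33) in the difference between gates. The causes were not tested. The blocks changed no other count by over 1.5 times. Among all genes, the number called over these settings ran from 49 to 420 in Mex3a-high against Mex3a-low Lgr5-low cells. It ran from 0 to 20 in Mex3a-low against Mex3a-negative Lgr5-low cells, and from 0 to 57 between the Lgr5 gates of Mex3a-low cells. With only the arrays compared it was 0 between the Lgr5 gates of Mex3a-high cells. The share of all genes is not given here for each block and scaling. Those counts are thus not read as a result about the 10. With n = 2 the arrays limit precision, and dim probe sets compress differences.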

Other observations

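In Lgr5-high cells, Chgb, a granin, was 11.52 and 10.67 in Mex3a-high cells, against 6.36 and 8.79 in Mex3a-negative cells. The fitted difference, 3.52 ± 0.81, did not pass (adjusted p = 0.505). Without the MR793 array of Mex3a-high cells it was 3.09 ± 0.98. Neurog3, the factor of enteroendocrine progenitors, was 1.36 higher in MR793 and 1.88 higher in MR820 in the same comparison, a difference of 1.62 ± 0.35 with the same adjusted p of 0.505, or 1.60 ± 0.41 without that array. Leaving it out leaves 1 array of Mex3a-high Lgr5-high cells, so only sizes are given for that fit. The transcription factor Insm1 differed by 1.30 ± 0.55 with all arrays and by 2.38 without that array. Nkx2-2, another transcription factor, differed by 1.18 ± 0.48 and by 2.16, and was 0.22 higher in MR793 and 2.14 higher in MR820. Pla2g2f, which was chosen after its values were seen, differed by 1.62 ± 0.29 and by 2.05. None of these 3 passed with all arrays (limma adjusted p = 0.505). The 10 hormone genes had a median difference of 0.86 in this comparison, or 0.32 without that array.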
